A study of Mus musculus with 6 samples.

Results

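Expression of the immunoglobulin heavy-chain variable segments (Ighv) was examined in RNA from mouse femur after blood removal. The segments were taken as every row of the deposited scaled table with the biotype IG_V_gene and a symbol starting with Ighv, which gave 81 of its 28533 rows. GENCODE M21 lists 113 Ighv genes of this biotype, all of them in the deposited count table. The 32 that were not in the scaled table had at most 5 counts in any library and held 196 counts in all, or 1.51% of the Ighv counts of this biotype.

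The 6 libraries came from femur bone of C57BL/6 mice, 12 weeks old and of genotype WT: 3 labelled Control and 3 labelled Phlebotomy. Total RNA was made from bone enriched in osteocytes, which are cells walled into the mineralised matrix, prepared with Nextera XT, which does not mark strand, and read in pairs of 126 bases. Columns whose names start with P were taken as phlebotomy and those starting with N as control by elimination, and libraries carry their column numbers (1, 2 and 4), since the sample titles run from 1 to 3. Nothing in the labels says that libraries came from separate animals, so the spread between libraries may be technical and p-values measure only that spread.

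An antibody heavy chain is assembled in developing B cells, which join a variable (V), a diversity (D) and a joining (J) segment by cutting and rejoining DNA. The V segment encodes most of the antigen-binding domain, and its end meets D and J in the third hypervariable loop. A B cell and its descendants express a single rearranged V segment, and a plasma cell, the antibody-secreting form, carries far more of that transcript than a resting B cell. In bulk RNA a high level of a V segment can therefore come from many cells or from more RNA per cell, and these cannot be told apart here.

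The gene counts of a library ranged from 11219243 to 19015588, and 3 counts came to 0.158 to 0.267 CPM, counts scaled to the library total. The osteocyte markers (8 of 8 measured) summed to 22404 to 48274 CPM in control and 13573 to 24616 CPM in phlebotomy libraries, after TMM scaling (the factors ran from 0.908 to 1.07). B-lineage markers were also present: 10 of 10 surface and identity genes were measured, none at 0, with sums of 887 to 1066 CPM in control and 640 to 895 CPM in phlebotomy. Genes of pro- and pre-B cells (6 of 8 in the table) summed to 164 to 178 and 129 to 171 CPM, and genes of plasma cells (12 of 12 in the table) to 821 to 1282 and 733 to 935 CPM. Single genes carried much of these sums: Cd74 (452 to 767 CPM over the libraries), Cd93 (75.5 to 116 CPM) and Xbp1 (401 to 515 CPM). Other members were low, as Tnfrsf17 (0.0544 to 0.716 CPM) and Mzb1 (0.418 to 1.54 CPM), so the sums do not measure how many such cells were present. In edgeR 0 genes of these 4 lists passed an adjusted p of 0.05 in either direction, but of all 18838 genes tested only 3 did so as higher and 0 as lower. The log2 fold change was below 0 for 7 of 8 tested osteocyte genes and 8 of 10 B-lineage genes. It was below 0 for 4 of 6 pro- and pre-B genes and 10 of 11 plasma-cell genes. The part of these genes in the Ighv levels was not tested.

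All 81 segments lie on chromosome 12 of GRCm38, on the minus strand, from Ighv5-2 (chr12:113578504-113578990), nearest to the constant genes, to Ighv1-85 (chr12:116000028-116000461), the farthest away. The number before the hyphen names the family, a group of segments alike in sequence, and 14 families were present. Members of 1 family shared a median of 84.9% of aligned bases (72.0% to 98.6% over 795 pairs), against 59.0% between families (at most 80.1% over 2445 pairs). The largest segment of a library differed between libraries, so the ends of the 5 segments that were largest in a library are shown, from the GENCODE M21 transcripts: the last 60 bases of each, 5′ to 3′. Capitals mark the codon of the conserved cysteine that precedes the third hypervariable loop, the place where D joins.

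Ighv1-9: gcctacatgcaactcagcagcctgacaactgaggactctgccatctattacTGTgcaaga

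Ighv6-3: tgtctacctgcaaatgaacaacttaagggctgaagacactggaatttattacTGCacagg

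Ighv9-3: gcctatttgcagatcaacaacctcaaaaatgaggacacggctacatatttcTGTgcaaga

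Ighv7-3: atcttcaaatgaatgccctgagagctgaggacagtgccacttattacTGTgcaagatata

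Ighv1-12: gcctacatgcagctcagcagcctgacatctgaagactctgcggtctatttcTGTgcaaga

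Ighv1-9 lies at chr12:114583569-114584002, Ighv6-3 at chr12:114391712-114392169, Ighv9-3 at chr12:114140692-114141122, Ighv7-3 at chr12:114153180-114153644 and Ighv1-12 at chr12:114615850-114616318. Similar segments can share reads, and the program that assigned reads to genes is not given in the sources used here. Every stretch of 126 bases, the length of a read, was found in no other of 185 Ighv transcripts for 69 of the 81 segments, these 5 among them. The other 12 had some shared stretches, most in Ighv1-71 (3.42% unique), followed by Ighv1-72 (64.9% unique). Of the segments described below, Ighv11-2 (89.0% unique), Ighv1-52 (90.3% unique) and Ighv1-50 (99.6% unique) belong to these 12. Counts of those 12 are less certain. The comparison did not cover reads that hold only part of a V segment, so it does not make the other counts certain. For 41 of the 81 segments the nearest segment was over 95% identical. Reads from an overlapping or antisense transcript cannot be told apart without strand.

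The Ighv segments together held 3382, 1689 and 1669 counts in control libraries 1, 2 and 4 and 1528, 3362 and 1132 counts in phlebotomy libraries 1, 2 and 4. On the TMM-scaled scale their summed level was 332, 91.9 and 112 CPM in the control libraries and 91.1, 218 and 71.2 CPM in the phlebotomy libraries. Control 1 and phlebotomy 2 stood above the other 4 libraries, and the groups overlapped. The group means were 179 ± 133 CPM (SD, n = 3) in control and 127 ± 79.7 CPM (SD, n = 3) in phlebotomy, and the ratio of geometric means, phlebotomy over control, was 0.746. Without control 1 the ratio was 1.11, so its direction rested on that library.

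**Figure D1:**
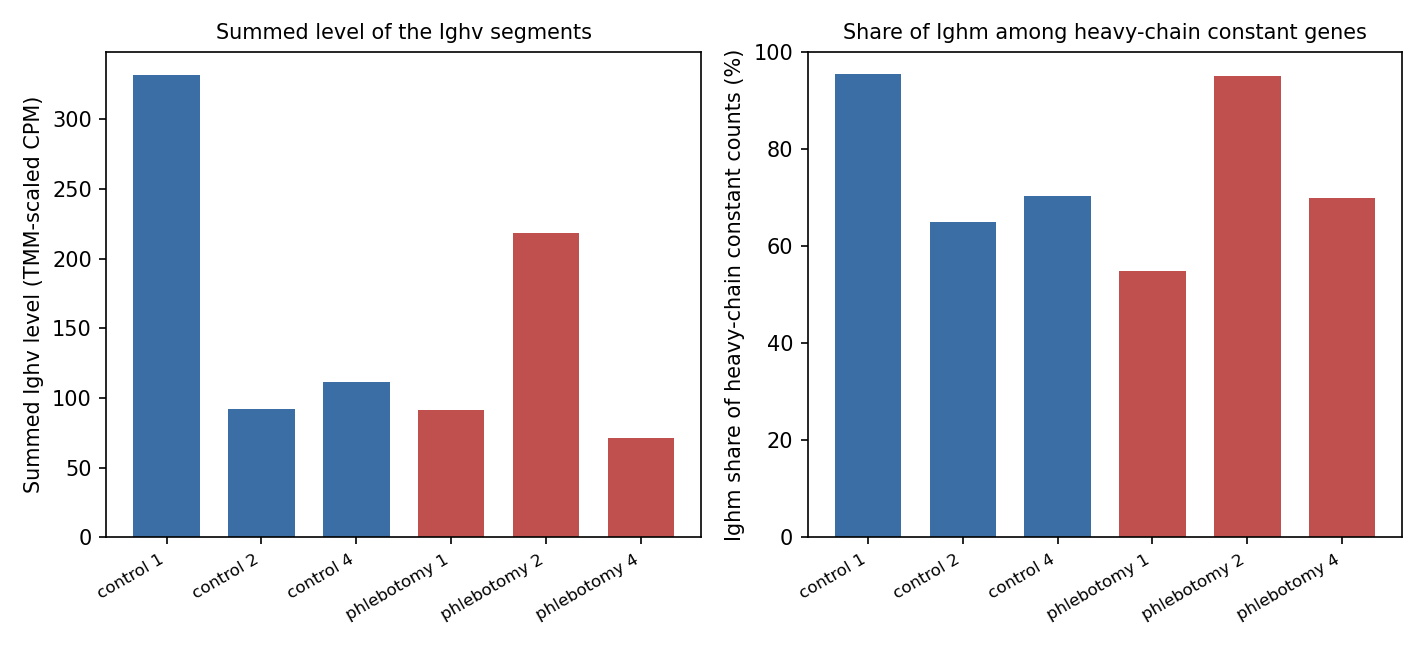
Bars give, for each of the 6 libraries (blue control, red phlebotomy), the summed level of the 81 Ighv segments in TMM-scaled CPM (left) and the percent of heavy-chain constant-gene counts that came from Ighm (right). Control 1 and phlebotomy 2 had the highest Ighv sums (332 and 218 CPM) and the highest Ighm shares (95.4% and 95.05%).

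The constant genes, which are spliced to the rearranged V segment and set the antibody class, varied with the segments. For every 100 counts of heavy-chain constant genes there were 20.8, 18.96 and 18.3 Ighv counts in control libraries 1, 2 and 4 and 21.5, 21.2 and 18.9 in phlebotomy libraries 1, 2 and 4, a narrow range. Ighm, the constant gene of IgM, made up 95.4%, 64.9% and 70.3% of constant-gene counts in the controls and 54.7%, 95.05% and 69.8% after phlebotomy. Igha, the constant gene of IgA, made up 2.31%, 20.6% and 10.9% in the controls and 21.4%, 1.07% and 9.41% after phlebotomy. The 2 libraries with the highest Ighv sums thus had the highest Ighm shares and the lowest Igha shares, with 1 such library in each group. Jchain, which encodes the chain that links IgM and IgA into polymers, was at 406, 59.5 and 86.1 CPM in the controls and 86.3, 162 and 39.4 CPM after phlebotomy. It was highest in the same 2 libraries.

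Each library was led by a few segments, and the leading segment was rarely the same. Ighv1-9 held 18.98% of the Ighv counts of control 1 (exact Clopper-Pearson 95% interval 17.7% to 20.3%). Ighv6-3 held 14.98% of control 2 (13.3% to 16.8%), and Ighv9-3 held 18.5% of control 4 (16.7% to 20.5%). These 3 libraries of 1 group thus had 3 different leading segments. In the phlebotomy libraries Ighv7-3 led phlebotomy 1 with 14.1% (12.4% to 15.9%) and Ighv1-12 led phlebotomy 2 with 13.0% (11.9% to 14.2%). Ighv6-3 led phlebotomy 4 with 16.4% (14.3% to 18.7%), as it did control 2. These intervals describe counting error alone and treat each read as independent. The reads carry no molecular identifiers and several may stem from 1 molecule, so the intervals may be too narrow.

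A segment that led a library was often minor elsewhere. Ighv1-9 held 0.479% to 3.08% of the other 5 libraries and Ighv1-12 held 0.300% to 2.19%. Ighv9-3 ranged from 1.92% to 5.48% outside control 4, and Ighv7-3 from 0.414% to 6.81% outside phlebotomy 1. Ighv6-3 was the exception, with 18.7% of control 1 as well, where it came close behind Ighv1-9. Its other shares were 1.62% in control 4, 4.91% in phlebotomy 1 and 2.11% in phlebotomy 2. Divided by exonic length, which ran from 347 to 480 bases, the same segment led in 6 of 6 libraries, with 12.6% to 19.5% of the length-scaled sum.

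**Figure D2:**
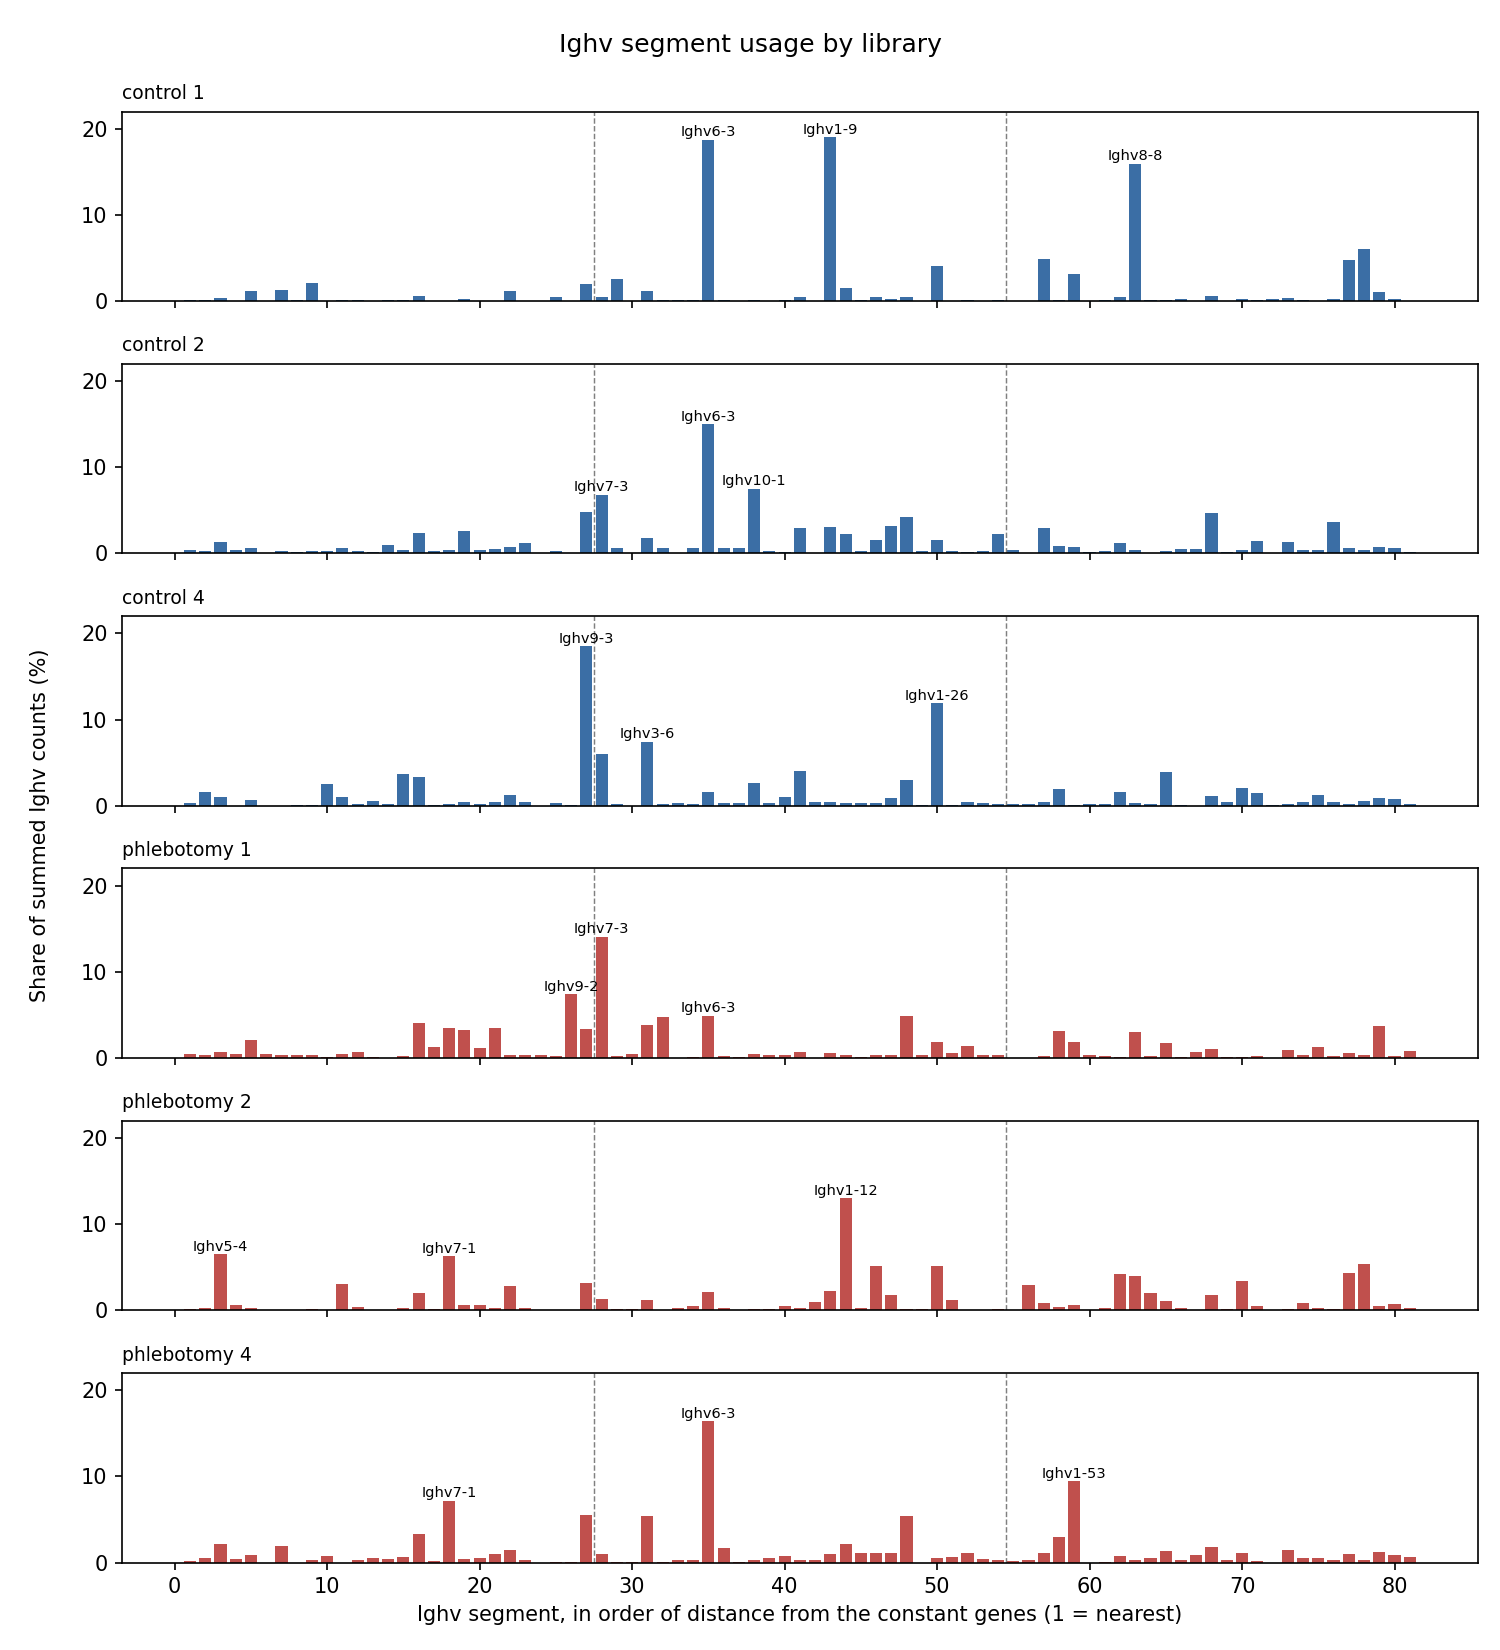
Each panel is a library (blue control, red phlebotomy). Bars give the share of the summed Ighv counts, in percent, of each of the 81 segments, ordered along the x axis by distance from the constant genes (1 is the nearest). The 3 largest segments are named, and dashed lines divide the segments into 3 groups of 27. The tallest bar runs from 13.0% (Ighv1-12, phlebotomy 2) to 18.98% (Ighv1-9, control 1).

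The next largest segments differed as well. In control 1 they were Ighv6-3 and Ighv8-8 (15.9%), in control 2 Ighv10-1 (7.52%) and Ighv7-3 (6.81%), and in control 4 Ighv1-26 (11.9%) and Ighv3-6 (7.43%). In phlebotomy 1 they were Ighv9-2 (7.40%) and Ighv6-3 (4.91%), in phlebotomy 2 Ighv5-4 (6.51%) and Ighv7-1 (6.25%), and in phlebotomy 4 Ighv1-53 (9.45%) and Ighv7-1 (7.16%). Over the 6 libraries 13 segments filled these leading places. Ighv7-1 stood among them in 2 phlebotomy libraries and in 0 control libraries.

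Control 1 was the most concentrated library. Its 3 largest segments made up 53.6% of Ighv counts, against 29.3% and 37.8% in controls 2 and 4 and 26.4%, 25.8% and 33.0% in phlebotomy libraries 1, 2 and 4. The number of segments needed to reach 50% of the counts was 3, 9 and 6 in the controls and 9, 9 and 7 after phlebotomy. The number needed for 90% was 17, 39 and 34 in the controls and 39, 30 and 40 after phlebotomy. The plot of cumulative share sets control 1 apart from the other 5 libraries, which lie close together.

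**Figure D3:**
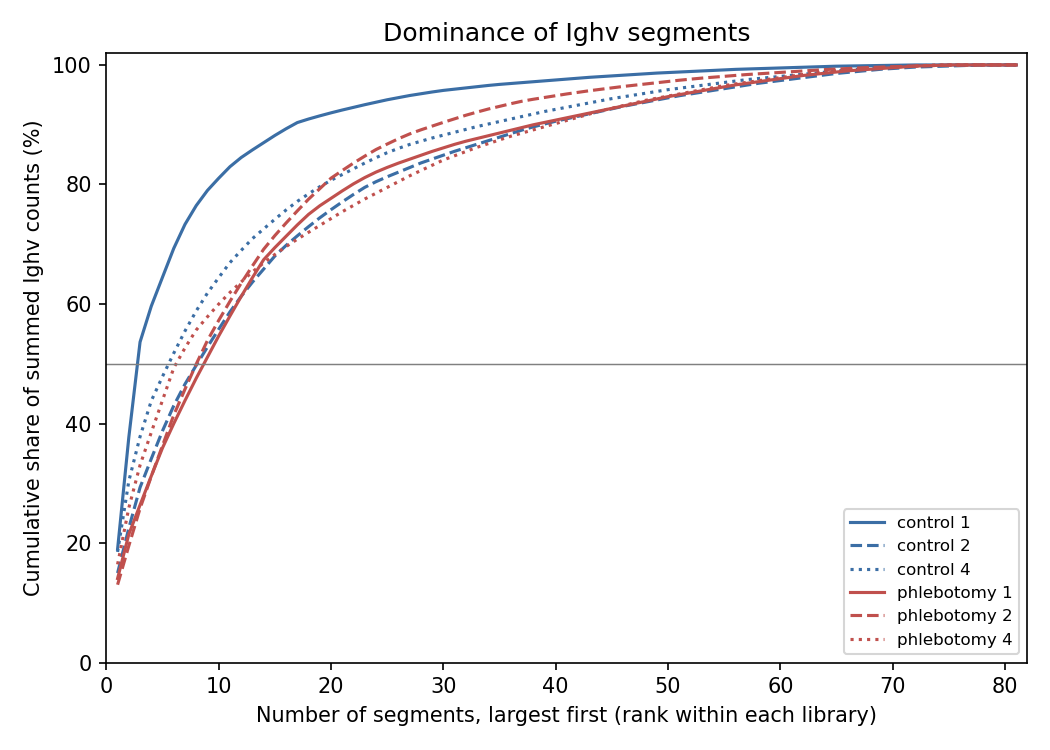
Lines give, for each library (blue control, red phlebotomy; solid, dashed and dotted for column numbers 1, 2 and 4), the cumulative percent of Ighv counts held by its largest segments, against the number of segments counted from the largest. The grey line marks 50%, which control 1 reached with 3 segments and the other libraries with 6 to 9.

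The effective number of segments, the inverse Simpson index, is the number of equally used segments that would give the same concentration. It was 9.09, 20.5 and 14.6 in control libraries 1, 2 and 4 (14.7 ± 5.69, SD, n = 3) and 21.5, 21.4 and 17.7 in phlebotomy libraries 1, 2 and 4 (20.2 ± 2.20, SD, n = 3). The phlebotomy libraries lay within a narrower band, and the groups overlapped because control 2 stood among them. The difference of the means, phlebotomy minus control, was 5.48 and fell to 2.66 without control 1. The largest segment's share was likewise 17.5% ± 2.19 in control and 14.5% ± 1.74 in phlebotomy (SD, n = 3), with overlapping groups.

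Many segments were present at a low level. A count was seen for 72, 78 and 75 of the 81 segments in control libraries 1, 2 and 4 and for 75, 77 and 74 in phlebotomy libraries 1, 2 and 4, and 61 segments had a count in all 6 libraries. Brought to 1132 counts, the lowest total, the expected number of segments with a count was 58.7, 75.4 and 72.8 in the controls and 73.7, 68.4 and 74 after phlebotomy. Control 1 and phlebotomy 2, the libraries with the highest Ighv sums, thus had the fewest segments at equal depth. In single libraries 3 counts corresponded to 0.0887% to 0.265% of the Ighv counts, so smaller shares were not resolved. Ighv16-1, the only member of its family, was listed at 0 in 5 libraries and had 6 counts in phlebotomy 1.

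Few segments were used steadily. Only Ighv9-3, Ighv3-6 and Ighv6-3 exceeded 1% of the Ighv counts in all 6 libraries, while 28 segments exceeded it in no library and 19 in 1 library. Even these 3 were not steady: Ighv9-3 ranged from 1.92% to 18.5%, Ighv3-6 from 1.12% to 7.43% and Ighv6-3 from 1.62% to 18.7%. Ighv5-17, Ighv1-26 and Ighv1-64 exceeded it in 5 libraries. Ighv5-17 was among the steadiest, with 1.96, 2.18 and 3.75 CPM in control libraries 1, 2 and 4 and 3.70, 4.28 and 2.39 CPM in phlebotomy libraries 1, 2 and 4. Its values overlapped between the groups, and its log2 fold change in edgeR was 0.38 (SE 0.34, adjusted p = 0.583).

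Most of the counts of many segments came from a single library. Over 50% of the CPM summed over the 6 libraries came from 1 library for 32 of the 78 segments with at least 10 counts (41.03%), against 4.75% of all 28333 rows with as many counts. The library was control 1 for 10 of them, phlebotomy 2 for 13, phlebotomy 1 for 4, control 2 for 3, control 4 for 2 and phlebotomy 4 for 0. Both groups thus held segments of this kind, most of them in the 2 libraries with the highest Ighv sums. With at least 50 counts the share was 28 of 53 segments (52.8%), against 0.459% of the other genes, and with over 75% in 1 library it was 9 of 78 (11.5%), against 0.304%. Light-chain variable segments (Igkv and Iglv), which are rearranged in the same cells, gave 40 of 85 (47.1%).

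Ighv9-2 was the extreme case. It had 113 counts in phlebotomy 1, and 1, 1 and 1 counts in control libraries 1, 2 and 4 and 2 and 1 in phlebotomy 2 and 4. The next library reached 1.93% of its CPM in phlebotomy 1. Ighv1-80 and Ighv1-78, which are neighbours in the distal part of the locus, were high in 2 libraries of different groups. Ighv1-80 had 203 counts in control 1 and 181 in phlebotomy 2 (19.9 and 11.7 CPM) and at most 9 counts in any other library. Ighv1-78 had 163 and 146 counts there (16.01 and 9.47 CPM) and at most 11 elsewhere. Both were singled out after their values were seen, and the libraries are those with the highest Ighm shares.

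The spread between libraries of 1 group was wide for these genes. For the 31 segments that passed the count filter described below, the median coefficient of variation was 0.779 in control and 0.881 in phlebotomy. For the other 10395 tested genes in the same range of mean level (0.722 to 16.4 CPM) it was 0.228 and 0.244. By the Morisita-Horn overlap, which weighs large segments most, usage was no closer within a group than between groups, as far as overlapping ranges show. The Morisita-Horn overlap of the shares, which is 1 for identical usage, was 0.181 to 0.516 between control libraries, 0.285 to 0.504 between phlebotomy libraries and 0.263 to 0.722 between groups. The medians were 0.463, 0.399 and 0.400. The most alike pair was control 2 and phlebotomy 4 (0.722), both led by Ighv6-3, and the least alike was control 1 and control 4 (0.181). Spearman correlations of the shares, which use ranks alone, gave another order. They were 0.378 to 0.573 between control libraries, 0.175 to 0.528 between phlebotomy libraries and 0.178 to 0.473 between groups. These ranges overlapped too, but the highest value in each group was above the highest between groups.

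The family Ighv1, by far the largest, with 38 of the 81 segments (46.9%), held 49.7%, 41.03% and 37.2% of the Ighv counts in control libraries 1, 2 and 4 and 30.4%, 58.4% and 43.8% in phlebotomy libraries 1, 2 and 4. Its share was thus near its part of the segments, and the groups overlapped. Ighv5, with 9 segments led by Ighv5-17, held 5.94%, 7.28% and 10.2% in the controls and 8.70%, 12.3% and 9.89% after phlebotomy. Ighv2, with 8 segments led by Ighv2-6, held only 0.444%, 1.66% and 5.03% in the controls and 3.86%, 1.64% and 2.65% after phlebotomy, although it has about as many segments as Ighv5.

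In several small families a single segment held most of the share. Ighv6, with 2 segments, held 18.9%, 15.6% and 1.98% in the controls and 5.17%, 2.32% and 18.1% after phlebotomy, nearly all of it Ighv6-3. Ighv8, with 5 segments led by Ighv8-8, held 16.1% of control 1 and 0.972% to 7.47% of the other libraries. Ighv9, with 4 segments, held 19.2% of control 4 through Ighv9-3 and 15.7% of phlebotomy 1, against 2.45% to 5.74% elsewhere. In phlebotomy 1 its share was divided among Ighv9-2 (7.40%), Ighv9-4 (4.71%) and Ighv9-3 (3.34%). Ighv10, with 2 segments, held 0.532%, 10.4% and 6.65% in the controls and 1.11%, 0.357% and 0.707% after phlebotomy. Control 2 and 4 were high for Ighv10, and control 1 was not.

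Ighv7 had 2 segments, Ighv7-1 and Ighv7-3. Of the 14 families it alone had a higher share in every phlebotomy library than in every control library. For 10.1% of all genes tested the groups did not overlap in this direction, but that is for single genes in CPM, not for family shares. Ighv7 held 0.444%, 7.16% and 6.23% in the controls and 17.6%, 7.53% and 8.13% after phlebotomy, so that the lowest phlebotomy value lay just above the highest control value. Of its 2 segments only Ighv7-1 had shares without overlap. Ighv7-3 held 0.414%, 6.81% and 5.99% in the controls and 14.1%, 1.28% and 0.972% after phlebotomy. Ighv11-2, the only segment of its family here and one that mouse B-1 cells are known to use, held 1.21%, 0.770% and 1.26% in the controls and 0.327%, 2.80% and 1.502% after phlebotomy, with overlapping groups. The other single-segment families were small: Ighv4-1 held 0.207% to 3.27%, and Ighv13-2 held 0.0887% to 0.651%. Ighv3, led by Ighv3-6, held 1.36% to 7.91%, and Ighv14, led on average by Ighv14-2, held 0.714% to 4.12%.

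**Figure D4:**
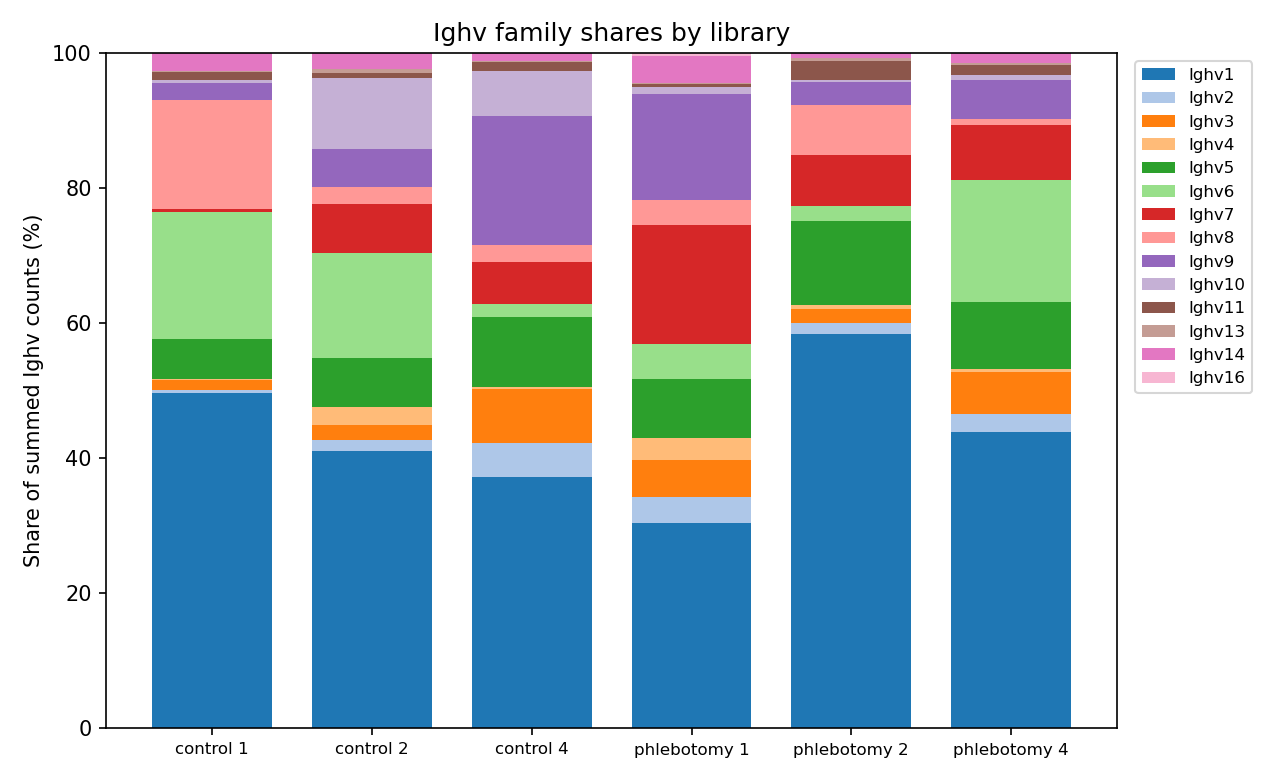
Stacked bars give, for each of the 6 libraries, the percent of the summed Ighv counts held by each of the 14 families. Ighv1 (bottom, dark blue) runs from 30.4% to 58.4%, while Ighv6, Ighv8 and Ighv9 are large in some libraries and small in others of both groups.

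Segments were also grouped by position, in 3 groups of 27 by distance from the constant genes. Developing B cells are known to rearrange segments near the D and J segments early and to need contraction of the locus for the distal ones. The proximal group, which holds all 8 Ighv2 and all 9 Ighv5 segments, had 10.3%, 19.8% and 37.2% of the counts in the controls and 36.1%, 28.1% and 29.2% after phlebotomy. The middle group had 50.3%, 56.8% and 43.5% in the controls and 42.2%, 36.9% and 42.4% after phlebotomy. Every phlebotomy library was lower than every control library, by a small margin (42.4% against 43.5%). Groups did not overlap in this direction for 11.2% of all genes tested, but that is for single genes in CPM, not for such shares. The shares by position were not tested. The distal group, made of 23 Ighv1 and 4 Ighv8 segments, had 39.4%, 23.4% and 19.3% in the controls and 21.7%, 35.1% and 28.4% after phlebotomy. Ighv5-2, the segment nearest to the constant genes and a frequent choice in early B-cell development, was low in all libraries (0.119% to 0.458%), as was Ighv1-85 at the far end (0.0296% to 0.785%).

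Differences between the groups were tested with edgeR over all genes. The filter on low counts kept 31 of the 81 segments and left out 50, which held 22.7% of the Ighv counts, with up to 203 counts in a library (Ighv1-80). Among the 31 tested segments 1 rose after phlebotomy at an adjusted p under 0.05, Ighv7-1, against 3 of all 18838 genes tested (0.0159%). None fell, and 0 of all genes did (0%). At an unadjusted p under 0.05, 2 segments were higher, against 7.01% of all genes, and 1 was lower, against 9.42%. The groups did not overlap for 2 tested segments that were higher (background 10.1%) and for 1 that was lower (background 11.2%), which are the same segments: Ighv7-1 and Ighv14-2 higher and Ighv10-3 lower. The count of segments without overlap was thus near or below that of genes in general. Each of these segments passed the count filter only through the group in which it was higher. With the other group below the filter's limit, it was tested only because every library of the higher group lay above that limit.

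The sizes of the differences went both ways. Of the 31 log2 fold changes 15 were above and 16 below 0, from -3.40 (Ighv1-9) to 4.83 (Ighv7-1), with a median of -0.04, against -0.0028 for all genes tested. The median size regardless of sign was 0.77 for the segments and 0.28 for all genes. Ighv1-9, with the most negative fold change, had 642, 52 and 8 counts in the controls and 9, 77 and 11 after phlebotomy, so its fold change (SE 2.12, adjusted p = 0.495 in edgeR) came mostly from control 1.

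Ighv7-1 (ENSMUSG00000076665, chr12:113896408-113896946) had 1, 6 and 4 counts in control libraries 1, 2 and 4 and 54, 210 and 81 counts in phlebotomy libraries 1, 2 and 4. Scaled, these were 0.0982, 0.326 and 0.268 CPM in the controls and 3.22, 13.6 and 5.10 CPM after phlebotomy, or 0.0296%, 0.355% and 0.240% and 3.53%, 6.25% and 7.16% of the Ighv counts. All 3 phlebotomy libraries were high and all 3 control libraries near the floor of 3 counts. The means were 0.231 ± 0.119 CPM and 7.31 ± 5.54 CPM (SD, n = 3 each), and the log2 fold change in edgeR was 4.83 (SE 0.62, adjusted p = 0.0201). Ighv7-1 passed the count filter only through the phlebotomy libraries, so this test is not independent of the filter. The adjusted p rose above 0.05 when control 1, control 2, control 4 or phlebotomy 1 was left out (0.246, 0.0641, 0.0695 and 0.0924 in edgeR) and with limma-voom (adjusted p = 0.159), while the fold change stayed between 3.98 and 5.21 without each library in turn.

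Ighv7-1 is known from mouse antibodies to phosphorylcholine, a component of bacterial cell walls and of oxidised lipids. The other member of its family, Ighv7-3, did not share its pattern. Ighv7-3 had 1.38, 6.26 and 6.69 CPM in the controls and 12.8, 2.79 and 0.692 CPM after phlebotomy, with overlapping groups and a log2 fold change of 0.16 (SE 1.17, adjusted p = 0.960 in edgeR). To show how far reads of both can be told apart, the last 300 of the aligned bases of each are given, from the GENCODE M21 transcripts, 5′ to 3′ on the minus strand, with the differing bases in capitals.

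Ighv7-1: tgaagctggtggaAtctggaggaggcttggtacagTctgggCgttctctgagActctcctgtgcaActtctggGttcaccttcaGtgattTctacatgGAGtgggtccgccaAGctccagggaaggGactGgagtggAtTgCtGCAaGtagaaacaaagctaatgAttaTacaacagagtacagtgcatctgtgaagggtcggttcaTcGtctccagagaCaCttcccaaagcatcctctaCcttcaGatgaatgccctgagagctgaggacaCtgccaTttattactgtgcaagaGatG

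Ighv7-3: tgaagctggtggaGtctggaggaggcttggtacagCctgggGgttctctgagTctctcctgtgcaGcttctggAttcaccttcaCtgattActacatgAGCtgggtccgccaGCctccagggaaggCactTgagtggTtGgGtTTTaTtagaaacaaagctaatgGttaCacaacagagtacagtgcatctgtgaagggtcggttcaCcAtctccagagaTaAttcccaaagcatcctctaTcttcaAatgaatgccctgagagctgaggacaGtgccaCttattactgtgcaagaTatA

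The pair was 88.9% identical, with 40 differences over 361 aligned bases, of which 34 lie in the stretch shown. The differences are spread along it, and no stretch of 126 bases of either segment occurred in another Ighv transcript.

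The family Ighv10 had its highest levels in 2 of the 3 control libraries. Ighv10-3 (chr12:114523441-114523905) had 15, 49 and 68 counts in control libraries 1, 2 and 4 and 10, 8 and 4 in phlebotomy libraries 1, 2 and 4, or 1.47, 2.67 and 4.55 CPM and 0.596, 0.519 and 0.252 CPM. Every control library was above every phlebotomy library, but the difference did not pass the adjusted test (log2 fold change -2.66, SE 0.49, adjusted p = 0.139 in edgeR). Ighv10-1 (chr12:114479005-114479451), which the filter left out, had 3, 127 and 43 counts in the controls and 7, 4 and 4 after phlebotomy. Control 1 was as low as the phlebotomy libraries for Ighv10-1. Both segments of this family are shown over 300 bases in the same way, because they are so alike that shared reads could link their counts.

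Ighv10-1: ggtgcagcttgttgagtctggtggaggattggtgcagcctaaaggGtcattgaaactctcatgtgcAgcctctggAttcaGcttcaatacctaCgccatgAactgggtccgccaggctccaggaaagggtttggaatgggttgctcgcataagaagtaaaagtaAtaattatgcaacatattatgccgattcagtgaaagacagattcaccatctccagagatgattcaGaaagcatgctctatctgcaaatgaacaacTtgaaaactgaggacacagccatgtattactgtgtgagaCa

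Ighv10-3: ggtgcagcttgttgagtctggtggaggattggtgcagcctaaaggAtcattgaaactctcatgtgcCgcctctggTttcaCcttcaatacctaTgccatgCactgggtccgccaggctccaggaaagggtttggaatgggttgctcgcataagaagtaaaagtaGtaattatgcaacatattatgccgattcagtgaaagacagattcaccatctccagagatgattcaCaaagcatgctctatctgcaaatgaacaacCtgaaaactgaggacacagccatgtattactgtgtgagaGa

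They were 96.7% identical, with 12 differences over 359 aligned bases, 10 of them in the stretch shown. Each stretch of 126 bases was still found in a single transcript of the 185. The ratio of their counts differed between libraries, as with 15 counts of Ighv10-3 against 3 of Ighv10-1 in control 1, and 49 against 127 in control 2.

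Ighv14-2 had 0.196, 0.435 and 0.535 CPM in the controls and 3.22, 0.649 and 0.692 CPM after phlebotomy. Phlebotomy 1 stood apart, and the other phlebotomy libraries were just above the highest control library (log2 fold change 1.90, SE 0.67, adjusted p = 0.216 in edgeR). Without phlebotomy 1 the log2 fold change was 0.74. Ighv7-1, Ighv14-2 and Ighv10-3 each passed the count filter only through the group in which they were higher. With the other group below the filter's limit, their tests are not independent of the filter.

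**Figure D5:**
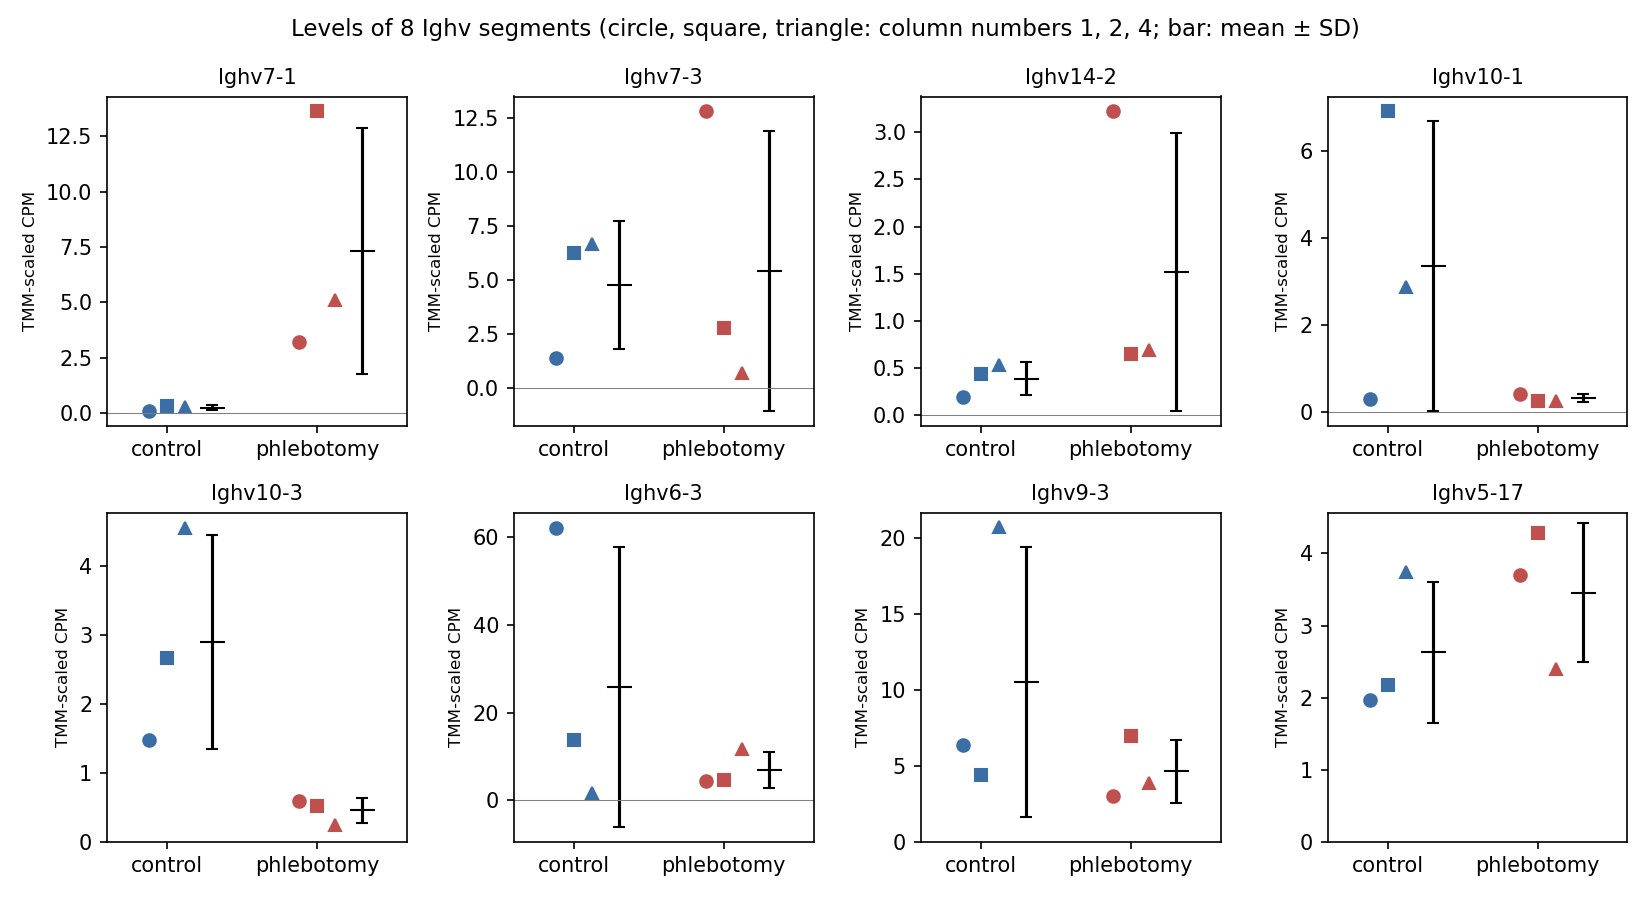
Points give the TMM-scaled CPM of 8 Ighv segments in each library (circles, squares and triangles for column numbers 1, 2 and 4; blue control, red phlebotomy), and black bars the mean ± SD of the 3 libraries of a group. Ighv7-1 is at 0.0982 to 0.326 CPM in control and 3.22 to 13.6 CPM in phlebotomy. Ighv10-3 is the reverse case, and Ighv7-3, Ighv6-3, Ighv9-3 and Ighv5-17 overlap.

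The remaining segments with the smallest p-values in edgeR had overlapping groups. Ighv5-4 had 12, 23 and 16 counts in the controls and 10, 219 and 25 after phlebotomy (log2 fold change 2.21, SE 1.32, adjusted p = 0.472 in edgeR), so that phlebotomy 2 alone was high, and without it the log2 fold change was -0.15. Ighv1-52 had 3, 14 and 33 counts in the controls and 48, 11 and 34 after phlebotomy (log2 fold change 0.77, SE 0.60, adjusted p = 0.540 in edgeR). In the other direction, Ighv9-3 had 6.38, 4.41 and 20.7 CPM in the controls and 3.04, 6.94 and 3.90 CPM after phlebotomy, with control 4 high (log2 fold change -1.19, SE 0.60, adjusted p = 0.373 in edgeR). Without control 4 the log2 fold change of Ighv9-3 was -0.23. Ighv8-12 had 4, 25 and 24 counts in the controls and 3, 18 and 2 after phlebotomy (-1.24, SE 0.71, adjusted p = 0.396 in edgeR). Ighv1-50 had 164, 50 and 7 counts in the controls and 3, 27 and 13 after phlebotomy (-2.77, SE 1.53, adjusted p = 0.444 in edgeR). Most of it lay in control 1, and without that library the log2 fold change of Ighv1-50 was -0.84.

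Ighv6-3, Ighv1-12 and Ighv8-8, each among the 3 largest of at least 1 library, did not pass the test. Ighv6-3 was at 62.2, 13.8 and 1.81 CPM in the controls and 4.47, 4.61 and 11.7 CPM after phlebotomy (log2 fold change -1.88, SE 1.36, adjusted p = 0.549 in edgeR), with control 4 the lowest and control 1 the highest of all 6 libraries. Ighv1-12 was at 5.11, 2.01 and 0.335 CPM in the controls and 0.298, 28.4 and 1.51 CPM after phlebotomy (log2 fold change 2.09, SE 1.92, adjusted p = 0.635 in edgeR), with phlebotomy 2 far above the rest. Ighv8-8 was at 52.9, 0.326 and 0.402 CPM in the controls and 2.74, 8.63 and 0.252 CPM after phlebotomy (log2 fold change -2.17, SE 2.29, adjusted p = 0.680 in edgeR), with control 1 far above the rest. For all 3 segments the difference between the groups was smaller than the spread within a group.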

How the data were processed

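RNA was measured in 6 femur libraries, 3 per group. The authors deposited raw counts per gene, a filtered copy of these counts, and a scaled signal table, by its name TMM-adjusted CPM. Builds GRCm38.p3 and mm10 stand in the submitters' processing notes, as do limma, edgeR, DESeq2 and STAR (2.5.2a and 2.7.3a), with no steps. The counting program is not given in the sources used here. The 19 rows that name no mouse gene (0.00278% to 0.0284% of counts, highest in phlebotomy 2) were left out. Members and gene lists were chosen with earlier results of these data known.

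Shares were computed from the deposited counts. Intervals and floors (3 counts) cover counting error only. Genes were filtered with filterByExpr (minimum count 10), scaled with TMM and tested in R 4.3.3 with edgeR 4.0.16 (quasi-likelihood, robust), without covariates, with Benjamini-Hochberg adjustment over 18838 genes at 0.05, and SE from the F statistic. Named segments are the 3 largest of each library, those past the threshold, the 4 with the smallest p per direction, the leading one of each family, any with at least 100 counts in 1 library and under 5% of that CPM elsewhere, and both ends of the locus. Positions and sequences came from GENCODE M21 (GRCm38) and were aligned with Biopython 1.88. Figures used matplotlib 3.10.9 in Python 3.11.15.

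Alternatives were other scaling and filters, DESeq2 1.42.0, limma-voom and limma-trend (limma 3.58.1; pseudocounts 0.5 and 1 on the deposited signal), a replicate block, shares per length, added pseudogenes, other cutoffs, and leaving out each library. Column numbers were not used as pairs.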

Additional observations from a re-analysis of the deposited data

How the results depend on the processing

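The count of Ighv segments past the edgeR threshold was 1 of 31 tested, and 3 genes were called in all. It was 1 with DESeq2 size factors, with library size alone and with DESeq2, which called 284 genes in all. With no low-count filter it was 7 (3 higher, 4 lower, 577 genes in all), and with the authors' filtered genes 2 (20 in all). It was 0 with limma-voom (0 in all; 3 segments at an unadjusted p under 0.05) and 0 with limma-trend at a pseudocount of 1 (2 in all; 4 at an unadjusted p under 0.05). Without each library in turn it ran from 0 to 4: 0 without control 2, control 4 or phlebotomy 1 (6, 8 and 6 at an unadjusted p under 0.05 in edgeR), 4 without phlebotomy 2, when 963 genes were called in all, and 1 without phlebotomy 4 or without control 1, when it was Ighv10-1 (lower). All genes called were 3, 14 and 7 without control 1, 2 and 4 and 0 and 4 without phlebotomy 1 and 4. The cause was not tested. With a replicate block 1 segment was called, Ighv7-1, with a log2 fold change of 4.89. The labels tie same-numbered libraries to no shared source, and their deviations from the group means had correlations of -0.104, -0.111 and -0.0573. The log2 fold change of Ighv7-1 was 2.52 to 5.21 over 15 alternatives, with adjusted p from 1.24e-23 to 0.246 and above 0.05 with limma-voom (0.159), limma-trend at a pseudocount of 1 (0.0537) and without control 1, control 2, control 4 or phlebotomy 1 (0.246, 0.0641, 0.0695 and 0.0924). Ighv10-3 passed with no filter (6.77e-06), with the authors' filtered genes (0.0374) and without phlebotomy 2 (0.0284), and Ighv8-12 without phlebotomy 2 (0.0459). Ighv5-4 changed sign without phlebotomy 2 (-0.15; up to 2.77 without phlebotomy 1). The other 109 of 120 alternatives for the 8 segments named from the test kept their direction, and their side wherever an adjusted p was given. Of these 8 segments DESeq2 gave an adjusted p only for Ighv7-1 and Ighv9-3, so the side of the rest could not be judged with it. The ratio of summed levels was 0.535 to 1.11, the difference in the largest share -4.24 to -2.24 points, and the difference in effective number 2.66 to 8.35. Segments with most of their CPM in 1 library were 9 with a mark of 75%. In alternatives added after seeing the data they were 29 by shares in place of CPM and 33 to 40 without each library in turn. Depth limits all shares below 0.265% in the shallowest library.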

Other observations

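Light-chain variable segments, 85 of them Igkv or Iglv, were led by other segments in most libraries as well: Igkv4-72 in control 1 (14.1% of the light-chain variable counts), Iglv1 in control 2 (19.6%) and control 4 (19.3%), Igkv12-44 in phlebotomy 1 (14.9%), Igkv12-46 in phlebotomy 2 (18.4%) and Igkv8-30 in phlebotomy 4 (15.3%). Their effective number was 14.4, 16.3 and 16.1 in control libraries 1, 2 and 4 and 14.98, 15.3 and 18.2 in phlebotomy libraries 1, 2 and 4. Control 1, the most concentrated library for Ighv, was thus the lowest for the light chains too, but close to the others. They summed to 992, 177 and 246 CPM in the controls and 241, 587 and 129 CPM after phlebotomy, highest in control 1 and phlebotomy 2, as for Ighv. Ighe, the constant gene of IgE, had 31 counts in phlebotomy 4 and was at 0 counts in the other 5 libraries.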
